A study of Mus musculus with 6 samples.

Results

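The hypoxia response and glycolysis genes described here are 37 genes picked by symbol from a deposited table of 45038 genes: the factors that sense low oxygen, their targets, and the enzymes and transporters that carry glucose to lactate. All 37 were found in the table. Expression had been measured by RNA sequencing in sorted heart cells of C57BL/6 mice that carried a Tie2-Cre transgene and a Rosa-LSL-tdTomato reporter, in both groups. In the MI group (3 libraries, Ms1535, Ms1537 and Ms1608), the left anterior descending coronary artery had been ligated at 6 to 8 weeks of age, and the infarct was taken 3 weeks later. In the Normal group (3 libraries with the same numbers), normal left ventricle was taken, and its label states that no infarct surgery was done. The Normal libraries carry the same protocol text, with mice of 6 to 8 weeks, and no age at harvest of their own, so a difference in age cannot be told apart from the group. The sort kept tdTomato-positive cells that lacked F4/80, a macrophage antigen, in both groups. Tie2-Cre recombines in endothelium and also in blood-forming cells, so the reporter does not mark endothelium alone. Whether a library is 1 mouse or a pool is not stated, and p-values measure only the spread between these libraries.

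Cells answer low oxygen through HIF, a transcription factor made of an oxygen-sensitive alpha subunit (HIF-1 alpha from Hif1a or HIF-2 alpha from Epas1) and a stable partner. Prolyl hydroxylases mark the alpha subunit for destruction while oxygen is present. When oxygen falls, HIF accumulates and binds short motifs near its targets, among them most glycolytic enzymes. Endothelial cells draw much of their ATP from glycolysis even in oxygenated tissue, and activated leukocytes also raise glucose uptake and lactate output. The alpha subunit is controlled mainly as a protein, which RNA levels do not show.

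The libraries differed in make-up beyond the groups. Values are FPKM (fragments per kilobase of transcript per M mapped fragments, M meaning mega), and steps between low values implied 33.2 to 46.3 M fragments per library. The labels' protocol gives about 10 M reads per sample, and these depths were not reconciled. Values are listed in the order Ms1535, Ms1537, Ms1608 throughout. The 16 pan-endothelial markers summed to 292 to 1192 FPKM in MI, and in Normal to 1372, 972 and 13.3 FPKM. None of these 16 was listed at 0 in any library, and each of the 16 was lowest in Normal Ms1608. Kdr, the main endothelial VEGF receptor, had 0.486 FPKM there against 73.9 and 44.6 FPKM in the other Normal libraries. The 16 pan-leukocyte markers summed to 2763 to 3084 FPKM in MI, and in Normal to 348, 515 and 4967 FPKM. Fibroblast markers (11 genes) summed to 5956, 5613 and 1015 FPKM (MI) against 718, 953 and 199 FPKM (Normal). Erythroid markers (7 genes) summed to 432, 1960 and 9600 FPKM (MI) against 6833, 7233 and 1028 FPKM (Normal). Endothelial transcripts were thus scarce in Normal Ms1608, and leukocyte and fibroblast transcripts were abundant in MI. Whether the label or the sort of Normal Ms1608 is right was not tested, so each of its values is that of the library labelled Normal. Results are given with and without it, and the part of leukocyte, fibroblast and erythroid RNA in them was not tested. In bulk samples, fewer cells of a type and less RNA per cell cannot be told apart.

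**Figure D1:**
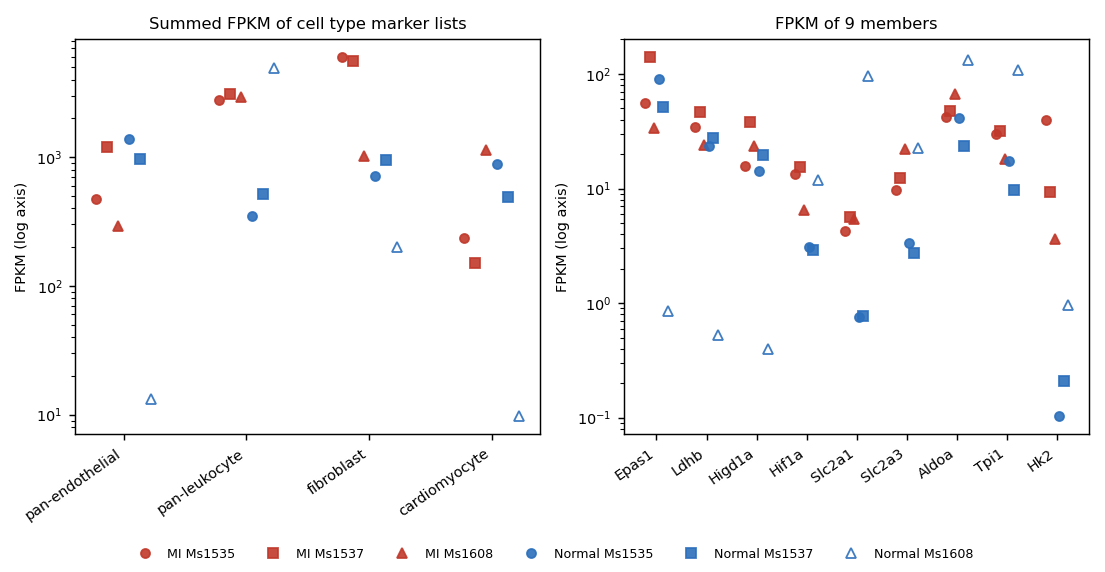
Left, summed FPKM of 4 cell type marker lists in each library on a log axis; right, FPKM of 9 members on a log axis. Red symbols are the 3 MI libraries, filled blue the Normal libraries Ms1535 and Ms1537, and the open triangle is Normal Ms1608, which lies lowest for pan-endothelial markers (13.3 FPKM) and for Epas1, Ldhb and Higd1a, and highest for pan-leukocyte markers (4967 FPKM) and for Slc2a1, Aldoa and Tpi1.

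No member passed the test of MI against all 3 Normal libraries. The hexokinase Hk2 and the regulatory enzyme Pfkfb4 had the highest log2 differences of the 32 tested members, 3.17 and 2.84. Differences above 0 were common to most genes of the table, so the members' counts are given beside those of all genes. The test was limma on log2(FPKM + 1) across the 10168 genes that reached 1 FPKM in 3 or more libraries, with Benjamini-Hochberg adjustment and a threshold of 0.05. It included 32 of the 37 members, and Car9, Ero1l, Pfkl, Pfkm and Slc16a1 lay below the filter. Of the 32, 0 had an adjusted p under 0.05, where 0.00983% of all tested genes did, and 5 had an unadjusted p under 0.05 with MI higher (16.1% of all genes). These 5 were Hk2, Pfkfb4, Pdk1, Pgam1 and Pgk1. None had an unadjusted p under 0.05 with MI lower (0.207% of all genes).

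The median log2 difference (MI minus Normal) of the 32 was 0.86, beside 0.78 for all tested genes. Differences were above 0 for 27 of the 32, where 87.2% of all genes were. Median-ratio scaling put the median gene at -0.03 and the members at -0.09. Upper-quartile scaling put them at 0.20 and 0.21, and quantile normalization at -0.05 and 0.06. After median-ratio scaling 15 of the 32 lay above 0, and 48.7% of all genes. After upper-quartile scaling 21 of the 32 did (60.2% of all genes) and after quantile scaling 18 (47.5%). Relative to the median gene, the members thus stood at 0.07 as deposited and at -0.06, 0.01 and 0.11 after these 3 scalings.

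In 11 of the 32 each MI library lay above each Normal library (25.0% of all genes), and in 1, Bnip3, each lay below (0.354%). Of the 11, scaling turned the sign of Bnip3l (-0.37 after median-ratio and -0.03 after upper-quartile scaling), Pkm (-0.30 after median-ratio scaling), Mxi1 and Pgam1 (-0.17 and -0.12 after quantile normalization). Near 0 but not turned were Ddit4 (0.03 after median-ratio scaling and 0.0055 after quantile normalization), Gpi1 (0.05 after median-ratio scaling) and Eno1 (0.07 after quantile normalization). The lowest differences after scaling were 2.25 for Hk2, 1.84 for Pfkfb4, 0.72 for Pgk1 and 0.61 for Pdk1. Without Normal Ms1608, the counts of members with all MI values above or below were 22 (52.6% of all genes) and 1 (1.75%). The median difference was then 1.07 beside 0.83 for all genes, and 27 of the 32 lay above 0 (87.7% of all genes). In that comparison limma called 4.51% of all genes and 0 of the 32 members, with 11 at an unadjusted p under 0.05 and MI higher (30.8% of all genes). None of the 32 had an unadjusted p under 0.05 with MI lower (0.738% of all genes). The lowest adjusted p among the members was 0.0541, for Hk2.

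The calls depended on how Normal Ms1608 was treated. When limma estimated a weight for each library from the data, that library received 0.117 beside 0.738 to 2.66 for the others. Then 13 of the 32 were called higher in MI (31.6% of all genes) and 0 lower (0.777%). These were Hif1a, Egln3, Kdm3a, Slc2a1, Slc2a3, Hk2, Gpi1, Pfkp, Pfkfb3, Pfkfb4, Aldoc, Pgk1 and Pgam1. With both Ms1608 libraries left out, limma called 3 higher, namely Hif1a, Hk2 and Slc2a1 (14.0% of all genes), and 0 lower (0.423%). The weights were themselves set by the spread of the libraries.

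**Figure D2:**
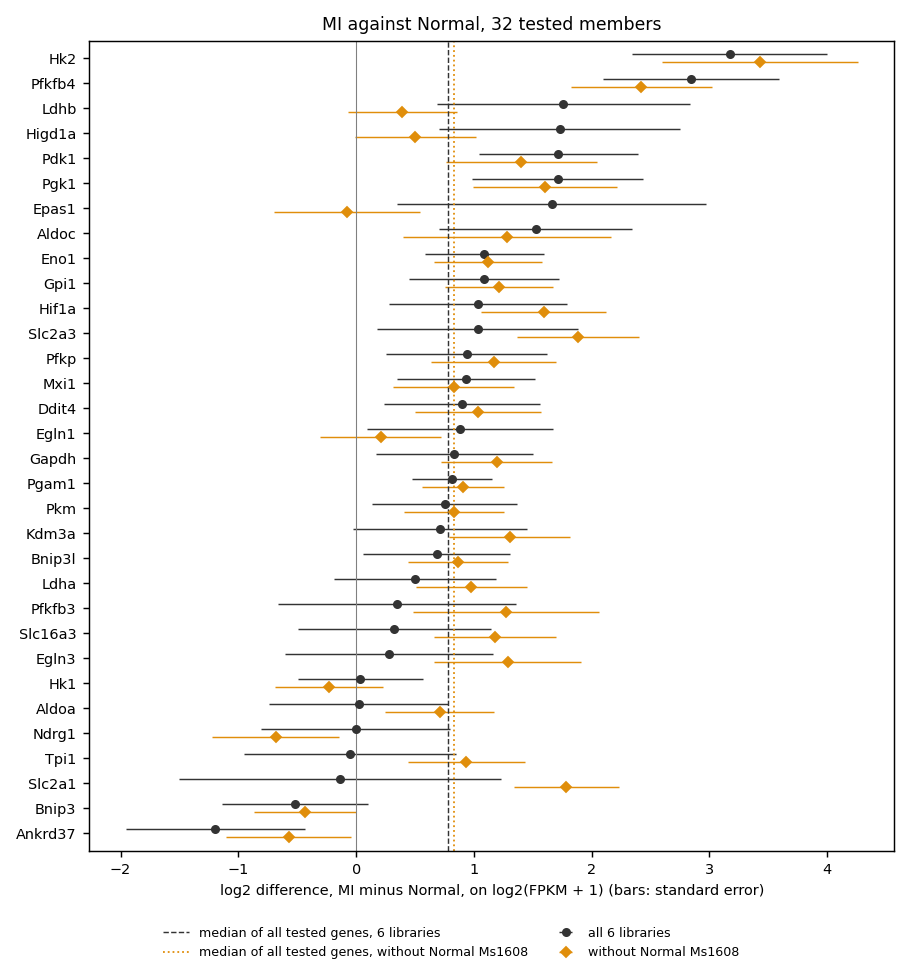
Log2 difference, MI minus Normal, of the 32 tested members on the log2(FPKM + 1) scale, with standard error bars, for all 6 libraries (circles) and without Normal Ms1608 (diamonds); vertical lines mark the median of all tested genes (0.78 and 0.83). Hk2 and Pfkfb4 lie farthest to the right in both, and Slc2a1 moves from -0.14 to 1.79 when that library is left out.

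The 5' flanks of 7 members are printed because the results turn on them. Hk2, Pfkfb4, Pdk1, Pgam1 and Pgk1 are the 5 members with the lowest p, the direction of Slc2a1 rests on 1 library, and Bnip3 is the member with each MI value below each Normal value. Sequences are RefSeq on GRCm38.p6, 5′ to 3′ on the strand of the gene, and end before its first transcribed base. Capitals mark the core letters of the hypoxia response element, ACGTG or GCGTG, read on either strand, so that CACGT and CACGC are the same letters on the other strand and CACGTG holds ACGTG on both strands. The printed flank of Pfkfb4, cut to 126 bases at the annotated start of the gene, holds neither. Its promoter window, described below, extends past that cut and holds 1 GCGTG at -117 from the RefSeq start. The flank of Slc2a1 was likewise cut, to 216 bases, and holds 1 GCGTG, printed as CACGC. The promoter window of Slc2a1 also holds 1 ACGTG before the RefSeq start, which the cut splits, so it is not in capitals. The flank of Bnip3 was cut to 237 bases and holds the 2 ACGTG and 3 GCGTG of its window.
Hk2, chr6:82774455-82774704, - strand: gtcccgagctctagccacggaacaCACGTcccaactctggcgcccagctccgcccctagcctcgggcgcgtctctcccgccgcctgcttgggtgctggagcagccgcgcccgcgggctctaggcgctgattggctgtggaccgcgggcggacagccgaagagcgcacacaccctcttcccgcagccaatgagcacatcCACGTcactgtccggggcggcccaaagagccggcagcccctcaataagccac
Pfkfb4, chr9:108991652-108991777, + strand: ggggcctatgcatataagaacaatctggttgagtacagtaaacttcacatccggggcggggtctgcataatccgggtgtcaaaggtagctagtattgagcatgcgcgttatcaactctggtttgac
Pgk1, chrX:106186850-106187099, + strand: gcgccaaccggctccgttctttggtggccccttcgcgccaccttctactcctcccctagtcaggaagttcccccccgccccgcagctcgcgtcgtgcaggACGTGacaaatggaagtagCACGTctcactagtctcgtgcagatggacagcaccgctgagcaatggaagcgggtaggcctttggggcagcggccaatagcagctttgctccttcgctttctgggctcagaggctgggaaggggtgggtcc
Pdk1, chr2:71872974-71873223, + strand: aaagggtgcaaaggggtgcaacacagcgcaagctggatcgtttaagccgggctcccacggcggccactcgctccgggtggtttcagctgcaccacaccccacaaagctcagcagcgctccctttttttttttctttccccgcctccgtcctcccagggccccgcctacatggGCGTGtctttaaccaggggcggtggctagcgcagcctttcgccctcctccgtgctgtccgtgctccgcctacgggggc
Pgam1, chr19:41911621-41911870, + strand: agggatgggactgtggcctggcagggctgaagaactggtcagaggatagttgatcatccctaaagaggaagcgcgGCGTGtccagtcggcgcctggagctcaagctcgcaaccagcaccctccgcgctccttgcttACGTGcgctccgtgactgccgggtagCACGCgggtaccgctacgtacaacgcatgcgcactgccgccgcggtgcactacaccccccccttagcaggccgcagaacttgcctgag
Slc2a1, chr4:119108495-119108710, + strand: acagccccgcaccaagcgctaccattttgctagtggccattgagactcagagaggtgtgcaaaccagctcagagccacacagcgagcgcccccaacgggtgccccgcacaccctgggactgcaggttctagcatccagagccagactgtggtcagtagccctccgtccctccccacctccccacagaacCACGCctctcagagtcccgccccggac
Bnip3, chr7:138909520-138909756, - strand: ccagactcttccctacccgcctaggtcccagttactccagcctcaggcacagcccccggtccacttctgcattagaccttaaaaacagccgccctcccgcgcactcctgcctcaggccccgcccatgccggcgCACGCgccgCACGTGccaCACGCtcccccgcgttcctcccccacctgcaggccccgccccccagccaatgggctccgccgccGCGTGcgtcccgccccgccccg

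Promoter windows of 300 bases (250 before and 50 after the start) were found for 33 of the 37 members, all but Bnip3l, Epas1, Ndrg1 and Slc2a3. ACGTG stood in at least 1 window of 24 of the 33 (72.7%), beside 21.8% of all 27025 genes in the table of promoters and 29.6% of the 7130 of them that matched a tested gene. GCGTG stood in 22 of the 33 (66.7%), beside 35.2% of all genes and 55.8% of tested ones. Either of them was found in 31 of the 33 (93.9%), beside 46.7% of all genes and 67.6% of tested ones, and Gpi1 and Tpi1 had neither. A gene can have several windows, and the 33 had 50 where the 27025 had 32851, which can raise the members' share. By window, ACGTG stood in 28 of 50 and in 6447 of 32851. Hk2 and Bnip3, whose differences point in opposite directions, both hold ACGTG in the printed flank, and Bnip3 holds it as a single CACGTG. A match is a description of the letters, not evidence of binding, and many members were listed as HIF targets to begin with.

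**Figure D3:**
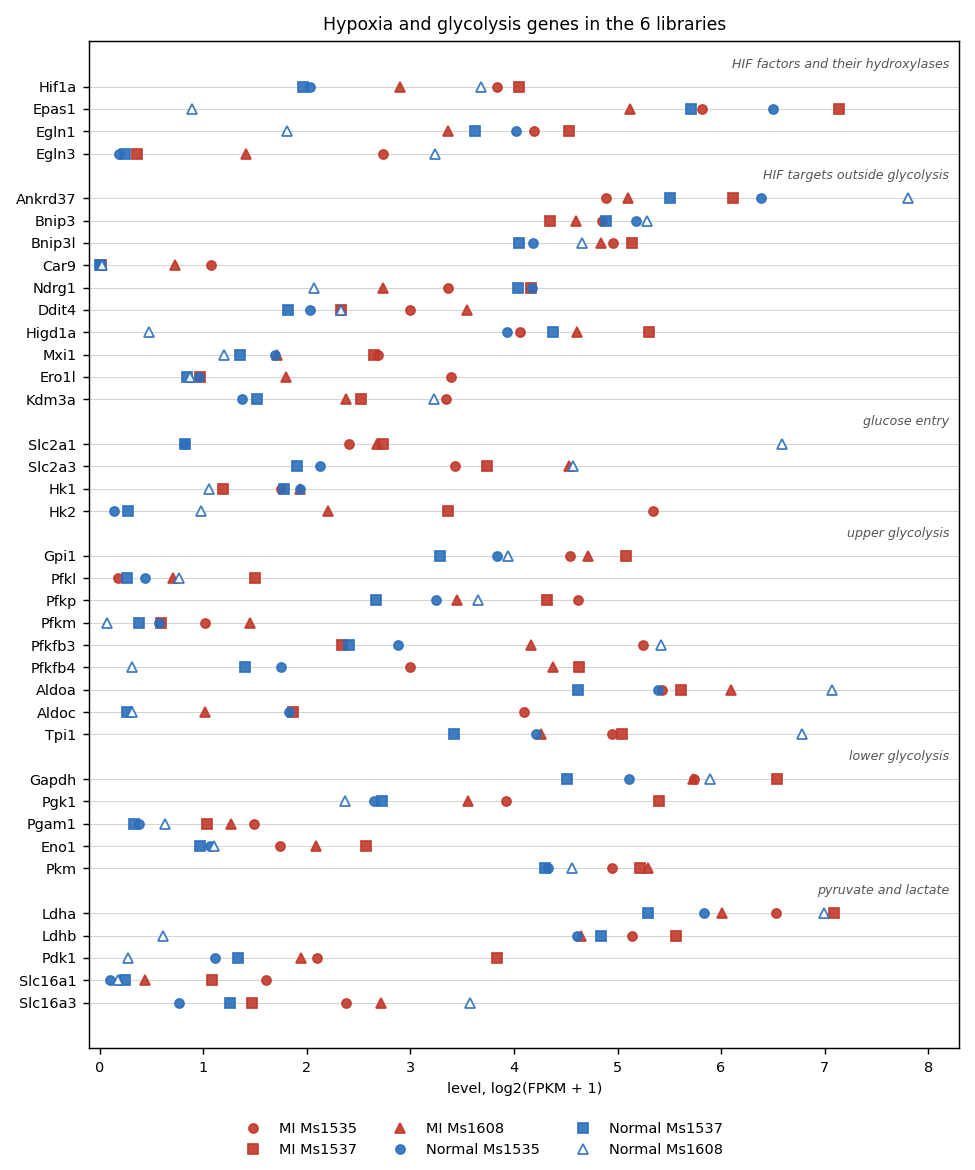
Level of each of the 37 members in each library as log2(FPKM + 1), grouped by role; red symbols are MI, filled blue symbols Normal Ms1535 and Ms1537, and open triangles Normal Ms1608. For Hk2, Pfkfb4, Pgk1 and Pdk1 all 3 red symbols lie to the right of all 3 blue ones, and for Slc2a1, Aldoa and Tpi1 the open triangle lies farthest right.

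Among the oxygen-sensing genes, Hif1a and Epas1 had unlike patterns. Hif1a, at chr12:73901375-73947530 on the + strand of GRCm38, measured 13.3, 15.5 and 6.46 FPKM in the MI libraries against 3.09, 2.91 and 11.8 in the Normal ones. Each MI library held at least 2.09 times the higher of Normal Ms1535 and Ms1537, while Normal Ms1608 lay within the MI range. The log2 difference was 1.03 (SE 0.76, limma adjusted p = 0.485), and 1.59 without Normal Ms1608 (SE 0.53, limma adjusted p = 0.0969). With all 6 libraries it was 0.08 after median-ratio scaling, 0.41 after upper-quartile scaling and 0.33 after quantile normalization. Epas1, the alpha subunit typical of endothelium, gave MI values of 55.5, 139.7 and 33.8 against Normal values of 89.7, 51.3 and 0.855 FPKM. The groups overlapped, and Normal Ms1608 had 0.0121 times the mean of the other Normal libraries. Its difference of 1.66 (SE 1.315, limma adjusted p = 0.517) became -0.08 without that library (SE 0.62, limma adjusted p = 0.930).

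Egln1, which encodes the main prolyl hydroxylase PHD2, stood at 17.3, 22.1 and 9.27 in MI against 15.2, 11.3 and 2.497 FPKM in Normal, with overlap in either comparison. Egln3, a hydroxylase gene that HIF itself induces, measured 5.65, 0.284 and 1.66 FPKM in the MI libraries against 0.139, 0.184 and 8.47 in the Normal ones. Its MI libraries differed from each other by more than MI Ms1537 did from Normal Ms1535 and Ms1537, and the highest value was that of Normal Ms1608. The 4 oxygen-sensing genes had a median difference of 0.96, and 0.75 without Normal Ms1608, beside 0.78 and 0.83 for all genes.

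Among HIF targets outside glycolysis, 8 of 10 were tested. Bnip3l, Ddit4 and Mxi1 (3 of the 8, beside 25.0% of all genes) had MI values all above Normal, and Bnip3 (1 of the 8, beside 0.354%) had them all below. Their median difference was 0.70, and 0.66 without Normal Ms1608, both under that of all genes. Bnip3 and Bnip3l encode related mitochondrial proteins that act in mitophagy, the removal of mitochondria. Bnip3 gave MI values of 27.8, 19.4 and 23.2 against Normal values of 35.2, 28.6 and 38.0 FPKM (a difference of -0.52, SE 0.62, limma adjusted p = 0.684). Bnip3l stood at 30.1, 34.2 and 27.7 in MI against 17.2, 15.6 and 24.3 FPKM in Normal (a difference of 0.68, SE 0.62, limma adjusted p = 0.579). In both genes the groups were separate, in opposite directions, and neither difference passed the test.

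Ankrd37, a small ankyrin protein gene often used as a HIF reporter, measured 28.7, 68.4 and 33.4 FPKM in the MI libraries against 82.5, 44.4 and 223 in the Normal ones. Its difference of -1.20 was the most negative of the 32 (SE 0.76, limma adjusted p = 0.424), and -0.57 without Normal Ms1608 (limma adjusted p = 0.441). On GRCm38 it overlaps Lrp2bp and Ufsp2 on the other strand, and whether counting used the strand was not given in the sources used here. Ndrg1, a stress-induced gene of growth control, gave MI values of 9.29, 16.9 and 5.65 against Normal values of 17.0, 15.4 and 3.20 FPKM. Its difference was -0.0055 (SE 0.80, limma adjusted p = 0.997), and the groups overlapped for both Ankrd37 and Ndrg1.

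Ddit4, which encodes the mTOR inhibitor REDD1, stood at 6.97, 4.04 and 10.7 in MI against 3.10, 2.52 and 4.03 FPKM in Normal. Mxi1, a Myc antagonist, measured 5.45, 5.29 and 2.28 FPKM in the MI libraries against 2.23, 1.57 and 1.31 in the Normal ones. The gap between the groups was narrow in both, between 4.04 and 4.03 FPKM for Ddit4 and between 2.28 and 2.23 FPKM for Mxi1. Kdm3a, a histone H3 lysine demethylase, gave MI values of 9.19, 4.75 and 4.22 against Normal values of 1.59, 1.88 and 8.35 FPKM. Each MI library held at least 2.25 times the higher of Normal Ms1535 and Ms1537, and Normal Ms1608 lay inside the MI range, as for Hif1a. Higd1a, a mitochondrial inner membrane protein that associates with the respiratory chain, stood at 15.7, 38.5 and 23.3 in MI against 14.2, 19.8 and 0.394 FPKM in Normal. Its groups overlapped, and its difference of 1.73 as deposited was 0.50 without Normal Ms1608.

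The remaining HIF targets lay below the filter. Car9, a carbonic anhydrase at the cell surface and a marker of hypoxic tumours, had 1.11, 0.0132 and 0.656 FPKM in MI, was listed at 0 in Normal Ms1535 and Ms1537, and had 0.0145 FPKM in Normal Ms1608. On a transcript of 2 kb, 3 fragments correspond to 0.0324 to 0.0452 FPKM, so that MI Ms1537 and Normal Ms1608 were near or under the counting limit. Ero1l, the gene for an oxidase of the endoplasmic reticulum, measured 9.48, 0.960 and 2.48 FPKM in the MI libraries against 0.946, 0.798 and 0.829 in the Normal ones. Both were high in MI Ms1535 and at or near the Normal level in MI Ms1537.

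Of the 6 roles, glucose entry had the highest median difference without Normal Ms1608 (1.83) and the lowest with it (0.53). Hk2, hexokinase 2, which traps glucose in the cell, lies at chr6:82725025-82774454 on the - strand. It gave MI values of 39.7, 9.29 and 3.61 against Normal values of 0.104, 0.210 and 0.971 FPKM. The lowest MI library held 17.2 times the higher of Normal Ms1535 and Ms1537, and the MI values themselves were far apart. The log2 difference was 3.17 (SE 0.83, limma adjusted p = 0.2455), and 3.43 without Normal Ms1608 (SE 0.83, limma adjusted p = 0.0541). Hk1, the hexokinase that most tissues express constantly, stood at 2.36, 1.29 and 2.83 in MI against 2.82, 2.43 and 1.09 FPKM in Normal, with a difference of 0.04 (SE 0.53, limma adjusted p = 0.980).

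Both glucose transporters were highest in Normal Ms1608. Slc2a1 encodes the glucose transporter GLUT1 and lies at chr4:119108711-119137983 on the + strand. It measured 4.29, 5.67 and 5.39 FPKM in the MI libraries against 0.758, 0.773 and 95.2 in the Normal ones. The MI libraries had an SD of 0.728 FPKM (n = 3) and were each at least 5.55 times Normal Ms1535 and Ms1537, whereas Normal Ms1608 held 124 times the mean of those libraries. The log2 difference was -0.14 (SE 1.37, limma adjusted p = 0.969) and turned to 1.79 without Normal Ms1608 (SE 0.44, limma adjusted p = 0.0566). Slc2a3, the high-affinity transporter GLUT3 of neurons and leukocytes, gave MI values of 9.77, 12.4 and 22.1 against Normal values of 3.38, 2.74 and 22.7 FPKM. Its difference was 1.03 (SE 0.85, limma adjusted p = 0.531), and 1.88 without Normal Ms1608 (SE 0.52, limma adjusted p = 0.06925). Pan-leukocyte markers, summed, followed the same order as Slc2a3 between groups, low in Normal Ms1535 and Ms1537 and high in the other 4 libraries, and their part in it was not tested.

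In upper glycolysis, Pfkfb4 stood out from its partner Pfkfb3. Both encode enzymes that make and break fructose 2,6-bisphosphate, the activator of phosphofructokinase. Pfkfb4 stood at 7.0, 23.7 and 19.7 in MI against 2.37, 1.64 and 0.245 FPKM in Normal. The lowest MI library was 2.96 times the highest Normal one, and the log2 difference was 2.84 (SE 0.75, limma adjusted p = 0.2455), and 2.42 without Normal Ms1608 (SE 0.60, limma adjusted p = 0.0559). Pfkfb3, which promotes vessel sprouting through glycolysis, measured 36.98, 4.07 and 16.9 FPKM in the MI libraries against 6.39, 4.30 and 41.7 in the Normal ones. MI Ms1537, the highest MI library for Pfkfb4, was the lowest of all 6 for Pfkfb3.

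Of the phosphofructokinase subunits, Pfkp (platelet type) was the most abundant in every library. It gave MI values of 23.55, 18.9 and 9.90 against Normal values of 8.52, 5.36 and 11.5 FPKM, and overlapped only through Normal Ms1608. Pfkl (liver type) ranged from 0.133 to 1.83 FPKM in MI and from 0.203 to 0.704 FPKM in Normal. Pfkm (muscle type) ranged from 0.507 to 1.735 FPKM in MI and from 0.0505 to 0.488 FPKM in Normal, and was highest in MI Ms1608. The 12 cardiomyocyte markers summed to 236, 151 and 1144 FPKM in MI and to 882, 494 and 9.79 FPKM in Normal. Pfkm stood at 1.02 and 0.507 FPKM in MI Ms1535 and Ms1537, and at 0.488 and 0.304 FPKM in Normal Ms1535 and Ms1537. The part of cardiomyocyte RNA in Pfkm was not tested.

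Gpi1, glucose-6-phosphate isomerase, stood at 22.3, 32.8 and 25.3 in MI against 13.3, 8.79 and 14.4 FPKM in Normal, with no overlap (a difference of 1.09, SE 0.64, limma adjusted p = 0.394). Its difference was 0.05 after median-ratio scaling and 0.38 after both upper-quartile scaling and quantile normalization. Aldoa, the aldolase of muscle and most other cells, measured 42.1, 47.9 and 67.3 FPKM in the MI libraries against 41.0, 23.5 and 133 in the Normal ones. Tpi1, triosephosphate isomerase, gave MI values of 29.9, 32.01 and 18.2 against Normal values of 17.5, 9.74 and 109 FPKM. In both genes the lowest MI value lay just above Normal Ms1535 and all 3 lay below Normal Ms1608, and their differences of 0.02 and -0.05 became 0.71 and 0.94 without that library (limma adjusted p = 0.299 and 0.218). Aldoc, the brain-type aldolase, stood at 16.1, 2.64 and 1.03 in MI against 2.56, 0.198 and 0.242 FPKM in Normal, and was highest in MI Ms1535 (difference 1.52, SE 0.82, limma adjusted p = 0.359). Its difference was 0.64 without MI Ms1535 and 2.18 without MI Ms1608.

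In lower glycolysis, each MI library lay above each Normal library in 4 of 5 genes (25.0% of all tested genes). Of these 4, Pkm turned to -0.30 after median-ratio scaling and Pgam1 to -0.12 after quantile normalization, where Eno1 stood at 0.07. In Gapdh, the exception, the overlap came from Normal Ms1608. Pgk1, phosphoglycerate kinase, which makes the first ATP of the pathway's payoff, measured 14.1, 41.2 and 10.8 FPKM in the MI libraries against 5.26, 5.63 and 4.17 in the Normal ones (a difference of 1.71, SE 0.72, limma adjusted p = 0.292). Pkm, pyruvate kinase, gave MI values of 29.8, 36.1 and 38.3 against Normal values of 19.2, 18.7 and 22.5 FPKM (a difference of 0.75, SE 0.61, limma adjusted p = 0.528). Gapdh stood at 52.5, 92.3 and 52.0 in MI against 33.5, 21.8 and 58.4 FPKM in Normal. Its difference of 0.83 as deposited was 0.10 after upper-quartile and -0.24 after median-ratio scaling.

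Pgam1, phosphoglycerate mutase, had 1.42 ± 0.381 FPKM in MI against 0.372 ± 0.156 FPKM in Normal, and Eno1, enolase 1, had 3.51 ± 1.31 FPKM and 1.07 ± 0.0989 FPKM (SD, n = 3 each). Their log2 differences were 0.81 (SE 0.34, limma adjusted p = 0.285) and 1.09 (SE 0.51, limma adjusted p = 0.312). The levels of both were far under those of the neighbouring enzymes. Near-identical copies were sought as other annotated genes with at least 95% identity over at least 300 bases of transcript. Gapdh had 92 (86 of them in the deposited table), Pgk1, Eno1, Ldha and Bnip3 4 each, and Pgam1, Bnip3l, Gpi1, Tpi1, Pkm and Ldhb 1 each. Reads that fit several copies may have been split or dropped, so levels of these genes are uncertain. The copies of Gapdh summed to 1.32 to 8.24 FPKM and those of Pgk1 to 1.86 to 6.33 FPKM. With its copies added, Pgk1 reached 20.5, 46.7 and 15.0 FPKM (MI) against 7.29, 7.49 and 10.5 FPKM (Normal), still with no overlap.

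At the end of the pathway, Pdk1 had MI values all above Normal. Pyruvate dehydrogenase kinase 1, its product, switches off pyruvate dehydrogenase and is a HIF target. Its levels were 3.30, 13.3 and 2.85 FPKM (MI) against 1.16, 1.53 and 0.214 FPKM (Normal) (a difference of 1.72, SE 0.68, limma adjusted p = 0.274). Ldha, the lactate dehydrogenase subunit that favours lactate formation, measured 91.6, 135 and 63.2 FPKM in the MI libraries against 55.9, 38.3 and 127 in the Normal ones. Its difference was 0.50 (SE 0.69, limma adjusted p = 0.730), and 0.98 without Normal Ms1608. Ldhb, the subunit of oxidative tissue such as heart, gave MI values of 34.1, 46.2 and 24.1 against Normal values of 23.4, 27.6 and 0.530 FPKM, and its difference of 1.76 became 0.39 without Normal Ms1608.

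The lactate transporters were low. Slc16a1 (MCT1) stood at 2.05, 1.12 and 0.353 in MI against 0.0705, 0.189 and 0.132 FPKM in Normal, all MI values above all Normal ones, but below the filter. Slc16a3 (MCT4, the exporter of glycolytic cells) measured 4.21, 1.77 and 5.59 FPKM in the MI libraries against 0.697, 1.40 and 10.9 in the Normal ones. Normal Ms1608 was again the highest library for MCT4.

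The balance between paralogs was computed as the share of each gene in the summed FPKM of its family, in 10 families. FPKM is scaled by length, so these are shares of transcripts as estimated. With 3 libraries against 3, an exact two-sided permutation test cannot give a p below 0.1, and no test was made. In 2 of the 10 families the groups were separate. Hk2 made up 94.4%, 87.8% and 56.0% of hexokinase 1 and 2 in MI and 3.54%, 7.97% and 47.2% in Normal. Bnip3l made up 52.0%, 63.9% and 54.4% of its pair in MI and 32.8%, 35.3% and 39.0% in Normal. Normal Ms1608 did not close the gap between 39.0% and 52.0%, and the sum of the pair lay between 44.1 and 62.2 FPKM in all 6 libraries.

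Without Normal Ms1608 the groups were separate in 4 families, and separation is easier to reach with fewer libraries. Hif1a made up 19.3%, 10.0% and 16.0% of the alpha subunits in MI but 3.33%, 5.37% and 93.3% in Normal. Ldhb made up 27.1%, 25.5% and 27.6% of the Ldh pair in MI, 29.5% and 41.9% in Normal Ms1535 and Ms1537, and 0.416% in Normal Ms1608. Epas1 and Ldhb were lowest in Normal Ms1608, as were 44.1% of all tested genes. The summed pan-endothelial and cardiomyocyte markers were also lowest there, and their part in Epas1 and Ldhb was not tested. The Ldhb share had an SD of 1.09 percentage points across the MI libraries (n = 3). Slc2a1 made up 30.5%, 31.4% and 19.6% of its pair in MI, 18.3% and 22.0% in Normal Ms1535 and Ms1537, and 80.7% in Normal Ms1608. The Pfkfb4 share ranged from 15.9% to 85.3% within MI alone.

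**Figure D4:**
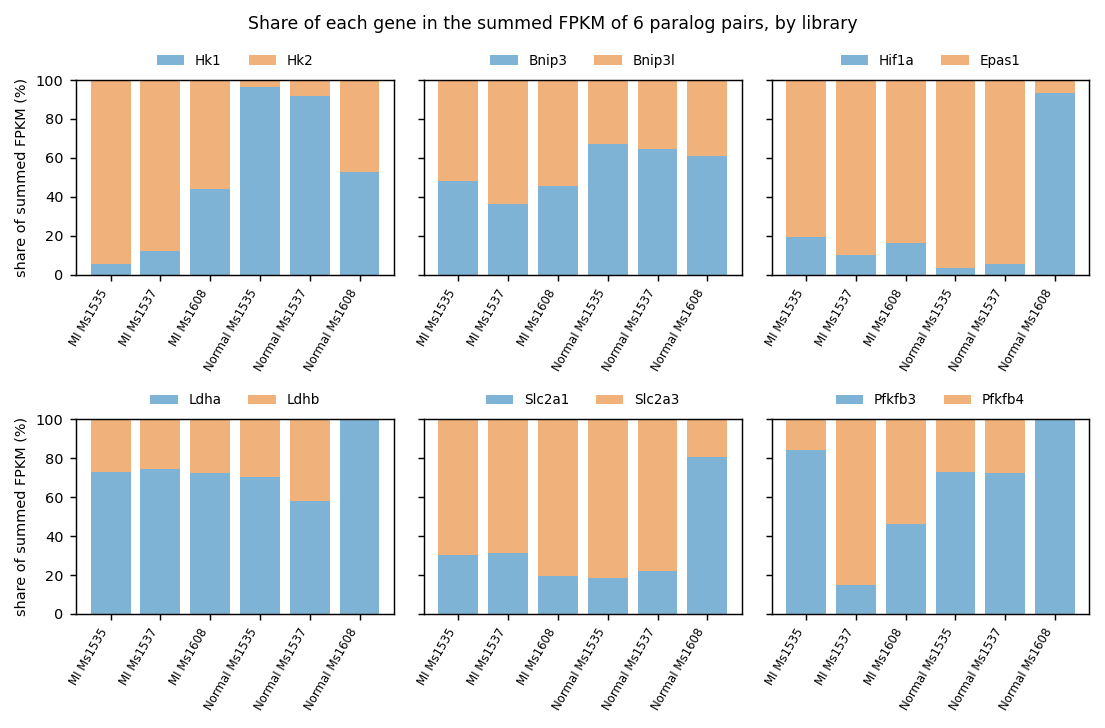
Share (%) of each gene in the summed FPKM of 6 paralog pairs, 1 stacked bar per library. The Hk2 share is 56.0% to 94.4% in MI and 3.54% to 47.2% in Normal, the Bnip3 pair also separates the groups, and Normal Ms1608 stands apart for Hif1a (93.3%), Ldha and Slc2a1 (80.7%).

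The MI libraries differed among themselves in which members were high. Of the 37 members, 12 were highest among the MI libraries in Ms1535, 18 in Ms1537 and 7 in Ms1608. For the 32 tested these were 9, 17 and 6, and over all tested genes the shares were 34.7%, 51.8% and 13.5%. The 12 highest in MI Ms1535 included Egln3, Car9, Ero1l, Aldoc, Pfkfb3, Kdm3a and Hk2. The 18 highest in MI Ms1537 included Epas1, Pdk1, Pgk1, Ldha and Gapdh, and that library held the highest pan-endothelial sum of the MI group (1192 FPKM, beside 469 and 292 FPKM). Over all 6 libraries, 9 of the 32 were highest in Normal Ms1608 (26.8% of all tested genes) and 10 were lowest there (44.1%).

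Other genes of the pathway were taken from 5 lists, written with earlier results of these data known. In each list limma called 0 genes in either direction. At an unadjusted p under 0.05 with MI higher, which 16.1% of all genes reached, stood 6 of 27 hypoxia-induced genes, 2 of 8 isoenzymes and 2 of 9 genes of pyruvate entry, and 0 of the 11 regulators and 8 pentose phosphate genes. Without Normal Ms1608, where limma called 4.51% of all genes, it called Dusp1, a phosphatase that acts on MAP kinases (2.29, adjusted p = 0.0256), and Emb, the gene for embigin, a partner of lactate transporters (2.79, adjusted p = 0.0430). Among 11 other regulators of HIF the median difference was 0.74, and 0.62 without Normal Ms1608, beside 0.78 and 0.83 for all genes. Of the 11, 2 were higher in each MI library than in each Normal one (25.0% of all genes), Egln2 (PHD1) and Arnt (HIF-1 beta). Egln2 gave MI values of 45.9, 43.4 and 30.4 against Normal values of 27.01, 12.0 and 4.72 FPKM (a difference of 1.66, limma adjusted p = 0.305). Arnt had a difference of 0.56 (limma adjusted p = 0.443). Among 27 tested of 41 further hypoxia-induced genes the median was 1.00, and 0.86 without Normal Ms1608. Of the 27, 7 had MI values all above Normal (25.0% of all genes). They were led by Tmem45a (a difference of 2.10, limma adjusted p = 0.253) and P4ha1, a collagen prolyl hydroxylase subunit (1.88, limma adjusted p = 0.252). Vegfa, named after its values were seen, stood at 7.02, 3.12 and 2.03 in MI against 0.281, 0.664 and 0.984 FPKM in Normal.

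Among 9 tested genes of pyruvate dehydrogenase and mitochondrial pyruvate entry, 5 had MI values all above Normal (25.0% of all genes). The median difference was 1.04, and 0.91 without Normal Ms1608, beside 0.78 and 0.83 for all genes. Pdk3, another kinase of the complex, measured 5.29, 7.40 and 5.61 FPKM in the MI libraries against 1.52, 0.916 and 0.0413 in the Normal ones (a difference of 2.04, SE 0.58, limma adjusted p = 0.2455). Pdhb, a subunit of the enzyme that the kinases switch off, was also higher in each MI library (1.64, limma adjusted p = 0.302). Among 8 tested of 26 other glycolytic isoenzymes and partners the median was 1.00, and 0.71 without Normal Ms1608. Of the 8, 2 were separate with MI higher (25.0% of all genes), Pgm2 (1.76, limma adjusted p = 0.272) and Slc2a6 (0.83, limma adjusted p = 0.273). Egln2, Arnt, Tmem45a, P4ha1, Pdk3, Pdhb and Pgm2 were each lowest in Normal Ms1608 (44.1% of all tested genes were), and Slc2a6 was not. All were named for MI values above all Normal ones and a large difference, which a low Normal Ms1608 helps a gene to meet. Without that library the differences of these genes lay between 0.39 (Arnt) and 1.73 (Tmem45a). The 8 genes of the pentose phosphate pathway had a median of 0.48, and 1.14 without Normal Ms1608, with 0 and 6 of the 8 separate with MI higher (25.0% and 52.6% of all genes).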

How the data were processed

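The authors deposited FPKM values for each gene, with all libraries in 1 table. Alignment and quantification tools are STAR 2.4.2a and Cufflinks 2.2.1 per the submitters' processing notes, with the builds GRCm38 and mm10. Not given in the sources used here are how multi-mapped reads were handled, whether strand was used, and which annotation release applied. Per the labels' protocols, RNA was amplified by T7 transcription before library preparation.

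Columns were matched to samples by title. The deposited values were compared on the log2(FPKM + 1) scale by limma 3.58.1 (R 4.3.3, eBayes with trend), pseudocount 1, with the group as the only term; such differences understate changes of low genes. The fit was checked on simulated data. Depth was read from low values of genes with 1 annotated transcript: multiplied by transcript length, 84.8% to 89.7% lay within 0.1 of a whole number of fragments, against 20% for values with no steps; the step size was itself chosen to maximise this share. Positions are from GENCODE M21 (GRCm38), copies were found with blastn 2.17.0, and promoters are RefSeq.

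All members are named. Of each other list of pathway genes, up to 2 per direction are named, those with no overlap between groups and the largest difference. Outside this rule, Dusp1 and Emb are named because limma called them without Normal Ms1608, and Vegfa after its values were seen. The members, roles and lists were chosen with earlier results of these data known. Alternatives were the pseudocount, filter, scaling, library weights, replicate block and libraries left out.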

Additional observations from a re-analysis of the deposited data

How the results depend on the processing

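With equal weights and all 6 libraries, 0 members were called by limma under each pseudocount, filter and scaling tried, and 1 gene was called over all genes (the predicted gene Gm24890 as reported). Array weights estimated from the data (0.117 for Normal Ms1608, 0.738 to 2.66 for the others) gave 3288 called genes and 13 called members, where 31.6% of all genes were called higher. Leaving out both Ms1608 libraries gave 1469 genes and 3 members (Hif1a, Hk2 and Slc2a1), with 14.0% of all genes higher. Leaving out 1 library gave 1 to 459 called genes, the highest without Normal Ms1608, 2 without MI Ms1537, and 0 members each time. The families with separate paralog shares numbered 2, and 4 without Normal Ms1608, where fewer libraries make separation easier to reach.

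The cause of each change was not tested. Members above 0 numbered 15 after median-ratio scaling, and the median of the members was -0.092 there, 0.21 after upper-quartile and 0.060 after quantile scaling. Signs turned after median-ratio scaling for Egln1 (-0.12), Egln3 (-0.21), Bnip3l (-0.37), Kdm3a (-0.15), Hk1 (-0.65), Pfkp (-0.069), Pfkfb3 (-0.61), Aldoa (-1.05), Gapdh (-0.24), Pkm (-0.30), Ldha (-0.58) and Slc16a3 (-0.42). After upper-quartile scaling they turned for Bnip3l (-0.033), Hk1 (-0.49), Pfkfb3 (-0.28), Aldoa (-0.70), Ldha (-0.23) and Slc16a3 (-0.10). After quantile normalization they turned for Egln1 (-0.15), Egln3 (-0.24), Mxi1 (-0.17), Kdm3a (-0.058), Hk1 (-0.98), Pfkfb3 (-0.24), Aldoa (-0.43), Pgam1 (-0.12) and Slc16a3 (-0.30). A pseudocount of 0.1 turned Ndrg1 (0.024) and Slc2a1 (0.32), and one of 5 turned Aldoa (-0.0019). Array weights turned Slc2a1 (1.55), Hk1 (-0.15) and Tpi1 (1.01), and leaving out both Ms1608 libraries turned them to 1.75, -0.38 and 1.18. Leaving out 1 library at a time moved Aldoa between -0.52 and 0.71, Egln3 between -0.34 and 1.29, Epas1 between -0.079 and 2.73, Hk1 between -0.23 and 0.25, Ndrg1 between -0.68 and 0.37, Pfkfb3 between -0.32 and 1.27, Slc16a3 between -0.23 and 1.18, Slc2a1 between -1.10 and 1.79 and Tpi1 between -0.74 and 0.94.

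With the replicate block, 1 gene and 0 members were called, as without it, and the median of the members was 0.86. Deviations from the group means of same-numbered libraries correlated at -0.05, 0.10 and 0.09 for Ms1535, Ms1537 and Ms1608. Those of libraries with different numbers correlated at -0.115 to 0.10. With 3 libraries per group and Normal Ms1608 far from the other Normal libraries, these correlations cannot settle whether the numbers mark pairs. The main fit did not treat them as pairs.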
